A study of Drosophila melanogaster with 4 samples.

Results

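The 26S proteasome subunit genes of Drosophila melanogaster were described by the cover of 2 histone marks, H3K27me3 and H3K27ac, in control and Cut knockdown neuroblast nuclei. Members were chosen by name alone, as protein-coding genes on chromosome arms X, 2L, 2R, 3L, 3R and 4 whose symbol begins with Prosalpha, with Prosbeta, or with Rpn or Rpt and a digit. This gave 48 of 13922 protein-coding genes, of which 32 were constitutive subunits (7 Prosalpha, 7 Prosbeta, 6 Rpt and 12 Rpn) and 16 were paralogues whose symbol carries R or T after the number. Each gene was measured over its dm6 span and 500 bp on either side, called its window here, as the share of bases under the authors' peaks. Where a gene is given a pair of values for a mark, the control value stands first.

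The study profiled chromatin of sorted embryonic nuclei with and without RNA interference against Cut, a homeodomain transcription factor encoded by ct. All 4 libraries came from embryos carrying wor-gal4 and UAS-dsRed, collected over 16 h at 25 °C, and differed in genotype (Control or Cut_KD) and in mark. There was 1 library for each mark and genotype, so differences lack a replicate check and are described without p-values. Per the labels' protocols the driver is active in the nervous system from stage 11, sorted nuclei made up 0.5 to 3% of embryonic nuclei, and purity was at least 50%, so the libraries can hold other cell types. The protocols name 1 catalogue number for the antibodies to both marks, and whether that is an error was not settled here.

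The proteasome is the large protease that degrades ubiquitin-tagged proteins in every cell. Its 20S core is a barrel of stacked rings, in which alpha subunits form the outer gated rings and beta subunits the inner rings that hold the active sites. The 19S cap on the barrel contains Rpt subunits, a ring of ATPases that unfolds substrates, and Rpn subunits, which bind ubiquitin chains, remove them and form the lid. Drosophila also carries duplicated subunit genes, several of which are known for expression in the testis. H3K27ac marks active promoters and enhancers, whereas H3K27me3 is deposited by Polycomb and marks repressed genes.

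The lists differed in length and width, and depth behind them is unknown. For H3K27me3 there were 4238 control peaks over 4.68 Mb and 18692 knockdown peaks over 19.5 Mb. For H3K27ac there were 25941 control peaks over 22.2 Mb, with a median width of 625 bp, and 25519 knockdown peaks over 14.8 Mb, with a median of 432 bp. The targeted gene ct had 2.49 kb of H3K27me3 in control and 5.55 kb in knockdown nuclei, and 1.01 and 2.42 kb of H3K27ac. Peaks do not measure the extent of the knockdown. H3K27ac peaks lay on 7 of 8 neuroblast marker genes in the control, with ase at 0, and on all 8 in the knockdown, summing to 17.8 and 17.3 kb. They also lay on all 5 neuron, 3 glia, 3 mesoderm and 3 germ line markers in both lists, so these peaks did not separate the labelled cell type from others.

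In the control, H3K27me3 was called at 1 of the 48 genes (2.08%), the paralogue Rpn12R, beside 12.2% of all genes, 6.35% of the 7973 genes whose windows were as long as those of members and 14.0% of the 9702 genes with H3K27ac in both genotypes. In the knockdown it was called at 32 of 48 (66.7%), beside 68.1% of all genes and 82.6% of genes with H3K27ac in both genotypes. The mark was present only in the knockdown list at 31 genes (64.6%), beside 57.3% of all genes, 60.1% of genes of member window length and 69.3% of genes with H3K27ac in both genotypes. Cover was higher in the knockdown by at least 10 percentage points of the window at 30 genes (62.5%), beside 50.7% of all genes, 53.7% of genes of that window length and 62.0% of genes with H3K27ac in both genotypes. No member had cover lower by 10 points, beside 1.50% of all genes. Only Rpn12R had control cover and could have been lower, so this count says little about direction. The member counts were thus near those of genes that carried H3K27ac in both lists, or below them.

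At least 50% of the window lay under H3K27me3 in the knockdown at 11 of the 48 genes (22.9%), beside 11.3% of all genes, 13.2% of genes of member window length and 13.7% of genes with H3K27ac in both genotypes. The share was 34.2% at mitochondrial and 15.2% at cytoplasmic ribosomal protein genes, so wide cover was not particular to members. Mean H3K27me3 cover of the 32 constitutive subunits was 0% in control and 30.0% in knockdown nuclei, and the all-gene means were 2.51 and 19.5%. Knockdown means were 35.1% at mitochondrial and 24.5% at cytoplasmic ribosomal protein genes. The strongest knockdown H3K27me3 peak of each constitutive gene that had one gave a median deposited fold of 1.90, near the list median of 1.89. Most genes with 50% cover lost it under a stricter bound. Under a stricter bound, which kept peaks whose -log10 q reached 2 and is called the q bound here, the number of members higher by 10 points was 5 (10.4%, all genes 11.0%), that with 50% cover fell to 1 (2.08%, all genes 3.79%), and the mean difference was 2.54 points for constitutive subunits and 4.27 for all genes. Under that bound the members and the constitutive subunits thus stood below all genes in these values, where they had stood above them. With peaks of a deposited fold of 2 or more, the members and the constitutive subunits stayed above all genes in these values. The shares were 14.6% (all genes 11.7%) and 4.17% (all genes 3.23%), and the mean differences 5.40 and 4.56 points. With lists trimmed to the same covered length, 2 members were higher by 10 points (4.17%, all genes 4.73%). At that length 2.08% had 50% cover (all genes 2.54%), and the mean difference was 2.54 points for constitutive subunits and 0.695 for all genes.

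H3K27ac was called at 43 of the 48 genes in the control (89.6%) and 36 in the knockdown (75.0%), beside 80.1% and 76.9% of all genes and 76.4% of genes of member window length in the knockdown. Both lists held a peak at 33 members (68.8%), beside 69.7% of all genes. A peak in the knockdown alone was found at 3 members (6.25%, all genes 7.17%), in the control alone at 10 (20.8%, all genes 10.4%) and in neither at 2 (4.17%, all genes 12.7%). H3K27ac cover was higher in the knockdown by at least 10 points at 15 members (31.2%), beside 13.5% of all genes and 17.4% of genes of member window length. It was lower by that much at 17 (35.4%), beside 36.2% of all genes and 39.7% of genes of member window length.

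Constitutive genes and paralogues differed within those totals. Of the 32 constitutive subunits, 30 had H3K27ac in each list (93.8%) and 28 in both (87.5%), and their mean cover was 38.9% in control and 42.6% in knockdown nuclei. Of the 16 paralogues, 13 had H3K27ac in the control (81.2%) and 6 in the knockdown (37.5%), and their mean cover was 28.9 and 12.8%. Over all genes the mean was 26.3% in the control, and the mean difference was -7.25 points. The paralogue difference of -16.1 points was -1.48 under the q bound and turned to 10.1 points under the fold bound, which kept peaks with a deposited fold of 2 or more, and to 0.418 points with lists of the same covered length. The all-gene difference turned as well, to 1.17, 6.36 and 0.0343 points.

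**Figure D1:**
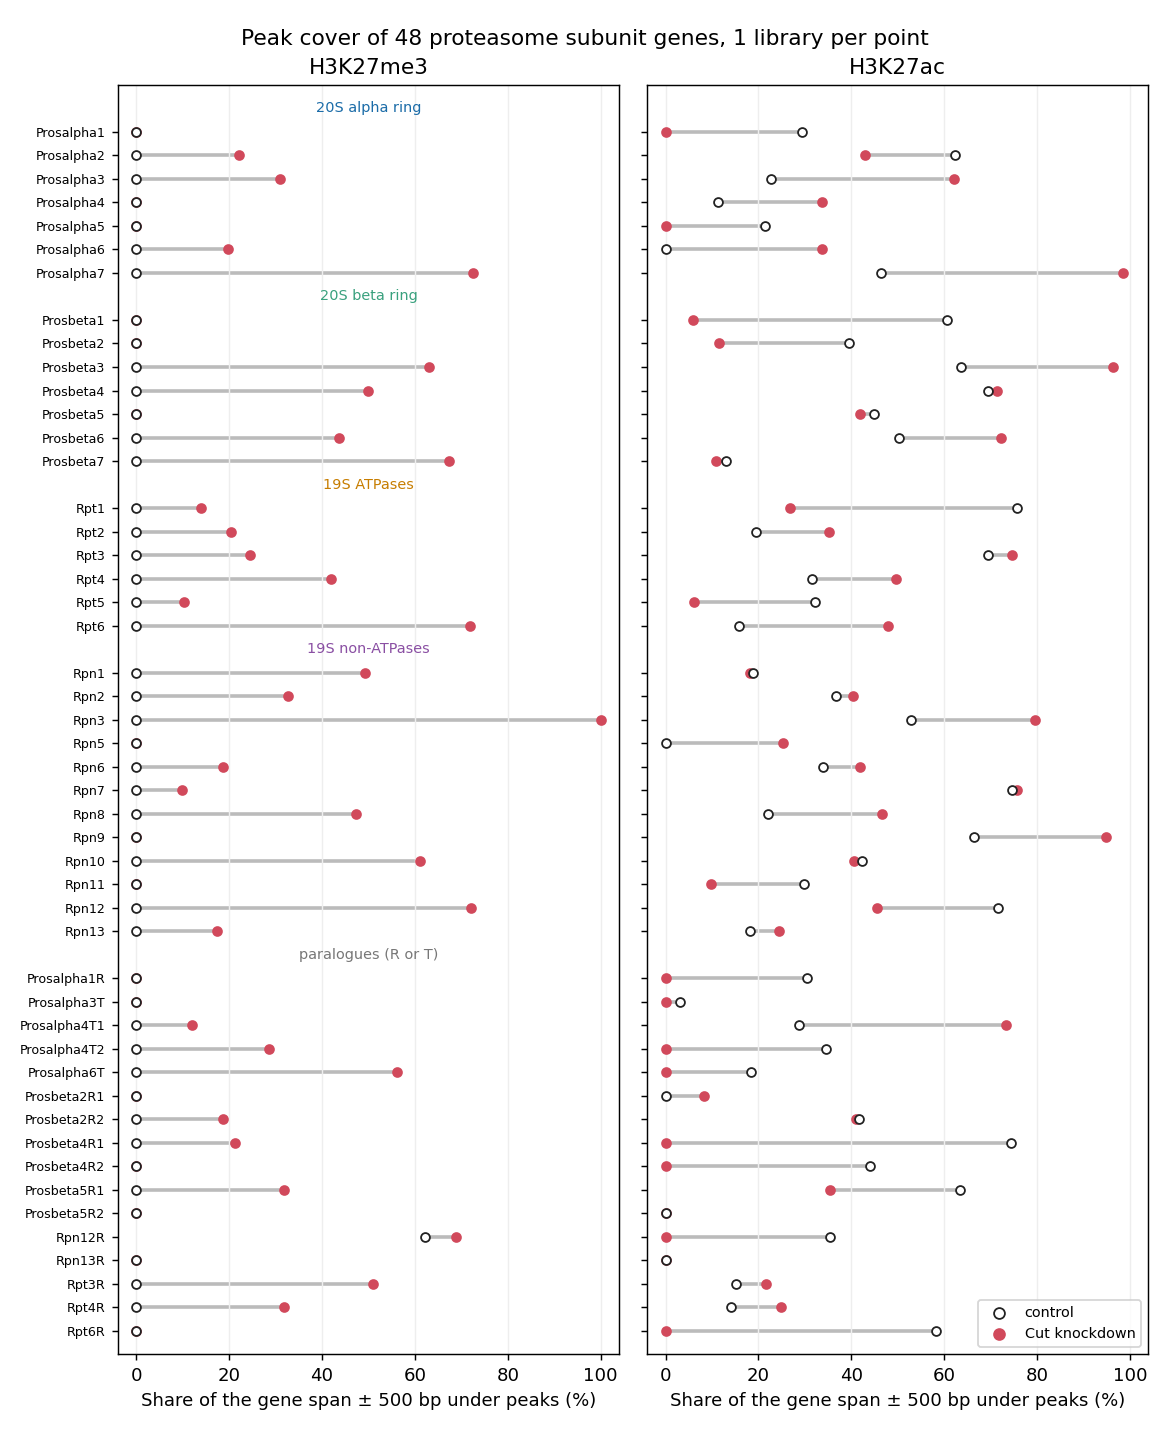
Share of each gene's window under H3K27me3 peaks (left) and H3K27ac peaks (right), in percent, for the 48 genes by class. Open points are the control library and filled points the Cut knockdown library; H3K27me3 is at 0 in the control for every gene but Rpn12R, and 8 paralogues have H3K27ac in the control alone.

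The alpha ring gates the entrance of the core. H3K27me3 was called at 4 of its 7 genes in the knockdown and at none in the control, beside 68.1 and 12.2% of all genes. Prosalpha7 (2R:9846636-9847836) had H3K27me3 over 0% of its window in the control and 72.6% in the knockdown. Its H3K27ac cover was 46.3% in control and 98.6% in knockdown nuclei, so both marks covered more of this gene in the knockdown lists. Under the q bound its H3K27ac difference turned to -46.3 points, as the knockdown peak had a -log10 q of 1.86 and the control peak 2.03. Prosalpha3 (2R:20994900-20996118) had H3K27me3 over 0 and 31.0% and H3K27ac over 22.8 and 62.1%. Prosalpha6 (2L:10221351-10222546) had no control H3K27ac peak and 33.7% cover in the knockdown, with H3K27me3 over 0 and 19.7%. Prosalpha4 (X:16276270-16277587) showed the same order for H3K27ac, 11.3 and 33.7%, without H3K27me3 in either list.

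The 3 other alpha genes had less H3K27ac in the knockdown. Prosalpha2 (3R:12431321-12432556) had 62.4% in control and 43.0% in knockdown nuclei, and H3K27me3 over 0 and 22.1%. That order turned under the q bound and under the fold bound, where the difference was 43.0 points in favour of the knockdown. Prosalpha5 (2R:17412767-17413769) had 21.4% and 0%, from a control peak with a -log10 q of 1.17. Prosalpha1 (2R:7827303-7828678) had 29.3% and 0%, from a control peak of 2756 bp that lay mostly over the neighbouring gene phr. Prosalpha1 and its paralogue Prosalpha1R lie close together and share synonyms in the gene table, so reads may not separate them and both values are uncertain.

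The beta ring holds the proteolytic sites, in Prosbeta1 (caspase-like), Prosbeta2 (trypsin-like) and Prosbeta5 (chymotrypsin-like). H3K27ac was called at all 7 beta genes in both lists (all genes 69.7%), and H3K27me3 at 4 in the knockdown and none in the control. Over all genes H3K27me3 was called at 68.1% in the knockdown and 12.2% in the control. None of the 3 catalytic genes had H3K27me3 in either list. This was not particular to them, as Prosalpha1, Prosalpha4, Prosalpha5, Rpn5, Rpn9 and Rpn11 had none either. The 4 calls at the other beta genes were lost under the q bound. Prosbeta1 (2R:16013805-16014787) had H3K27ac over 60.6% in control and 5.85% in knockdown nuclei, Prosbeta2 (3L:14999951-15001319) over 39.6 and 11.4%, and Prosbeta5 (2R:10819978-10821178) over 44.8 and 41.8%. Under the q bound the orders of Prosbeta1 and Prosbeta2 turned, to 5.85 and 11.4 points in favour of the knockdown.

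Among the non-catalytic beta genes, Prosbeta7 (3R:5357012-5358364) had H3K27me3 over 0% in control and 67.4% in knockdown nuclei, with H3K27ac at 12.9 and 10.9%. Prosbeta3 (3R:9005313-9006226) had H3K27me3 over 0 and 63.1% and H3K27ac over 63.6 and 96.3%. Prosbeta4 (2L:16731180-16732133) had H3K27me3 over 0 and 50.0% and H3K27ac over 69.4 and 71.3%. These genes thus shared wide H3K27me3 in the knockdown and differed in H3K27ac. Prosbeta6 (3L:16609400-16610418) had H3K27me3 over 0 and 43.6% and H3K27ac over 50.2 and 72.3%, a difference that turned to -49.5 points under the q bound.

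The Rpt ATPases form the motor of the cap. All 6 had H3K27ac in both lists, beside 69.7% of all genes. All 6 also had H3K27me3 in the knockdown list alone, with cover higher by at least 10 points, beside 57.3 and 50.7% of all genes. These calls did not hold in every setting. With no margin on either side of the gene the difference was 0 points at Rpt5 and 9.63 at Rpt4, and under the q bound it was 0 at all 6. Without bases of other genes it was 0 at Rpt5. Rpt1 could not be measured in that setting, as its window lies wholly within the gene CG17985. Rpt6 (X:21316052-21317663) had H3K27me3 over 0% in control and 71.9% in knockdown nuclei and H3K27ac over 15.9 and 47.8%. Rpt4 (X:6289470-6291245) had H3K27me3 over 0 and 42.0% and H3K27ac over 31.6 and 49.7%. Rpt3 (X:11125101-11126785) had H3K27me3 over 0 and 24.5%, and its H3K27ac was nearly alike, 69.5 and 74.6%. Rpt2 (3R:23929873-23931558) had H3K27me3 over 0 and 20.4% and H3K27ac over 19.5 and 35.1%. Lower H3K27ac in the knockdown was seen at the ATPase genes Rpt1 and Rpt5. Rpt1 (2R:7652440-7653954) had 75.6 and 26.8%, where a control peak of 1901 bp faced knockdown peaks of 387 and 288 bp. Its difference turned to 11.5 points under the q bound and to 26.8 points under the fold bound. Rpt5 (3R:23752876-23754623) had 32.2 and 6.11%, a difference that turned to 6.11 points under the fold bound, and its H3K27me3 difference of 10.3 points lay just past the bound.

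The Rpn subunits include the scaffolds Rpn1 and Rpn2, the ubiquitin receptors Rpn10 and Rpn13, the deubiquitinase Rpn11 and the other subunits of the lid. H3K27ac was called at 11 of 12 control windows and at all 12 knockdown windows, beside 80.1 and 76.9% of all genes. H3K27me3 was called at none in the control and at 9 in the knockdown (75.0%), beside 12.2 and 68.1% of all genes. Rpn3 (2L:19051790-19053681), a lid subunit, had H3K27me3 over 0% in control and 100% in knockdown nuclei, from a single peak of 4686 bp with a -log10 q of 1.44. A window wholly under knockdown H3K27me3 was found at 173 of all genes (1.24%). H3K27ac covered 52.9% of Rpn3 in control and 79.6% in knockdown nuclei, so most of its bases lay under peaks of both marks. The lid subunit Rpn12 (3L:16583028-16584022) had H3K27me3 over 0 and 72.1%, and its H3K27ac was 71.7 and 45.5%. Rpn10 (3L:21537000-21538582) had H3K27me3 over 0 and 61.2%, with H3K27ac at 42.4 and 40.6%.

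At the other lid genes, Rpn9 (3R:23731375-23733462) had H3K27ac over 66.5% in control and 94.8% in knockdown nuclei without H3K27me3 in either list. Rpn5 (3R:5789493-5791569) had no H3K27ac peak in the control, 25.3% in the knockdown and no H3K27me3. Rpn8 (2R:24400028-24404527) had H3K27ac over 22.1 and 46.7% and H3K27me3 over 0 and 47.4%. Rpn11 (2L:5058404-5059790), the lid's catalytic subunit, had H3K27ac over 29.7 and 9.68% and no H3K27me3. Its difference turned to 9.68 points in favour of the knockdown under the fold bound and with lists of the same covered length. The scaffold gene Rpn1 (3L:19915051-19918160) had H3K27me3 over 0 and 49.3%, with H3K27ac at 18.9 and 18.1%. The scaffold gene Rpn2, the lid gene Rpn6 and the receptor gene Rpn13 had modest cover, with knockdown H3K27me3 at 32.6, 18.7 and 17.3% and H3K27ac differences of 3.63, 8.17 and 6.26 points. Rpn7 had the H3K27me3 difference nearest to the bound from below, 9.82 points, with H3K27ac over 74.6 and 75.6%.

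**Figure D2:**
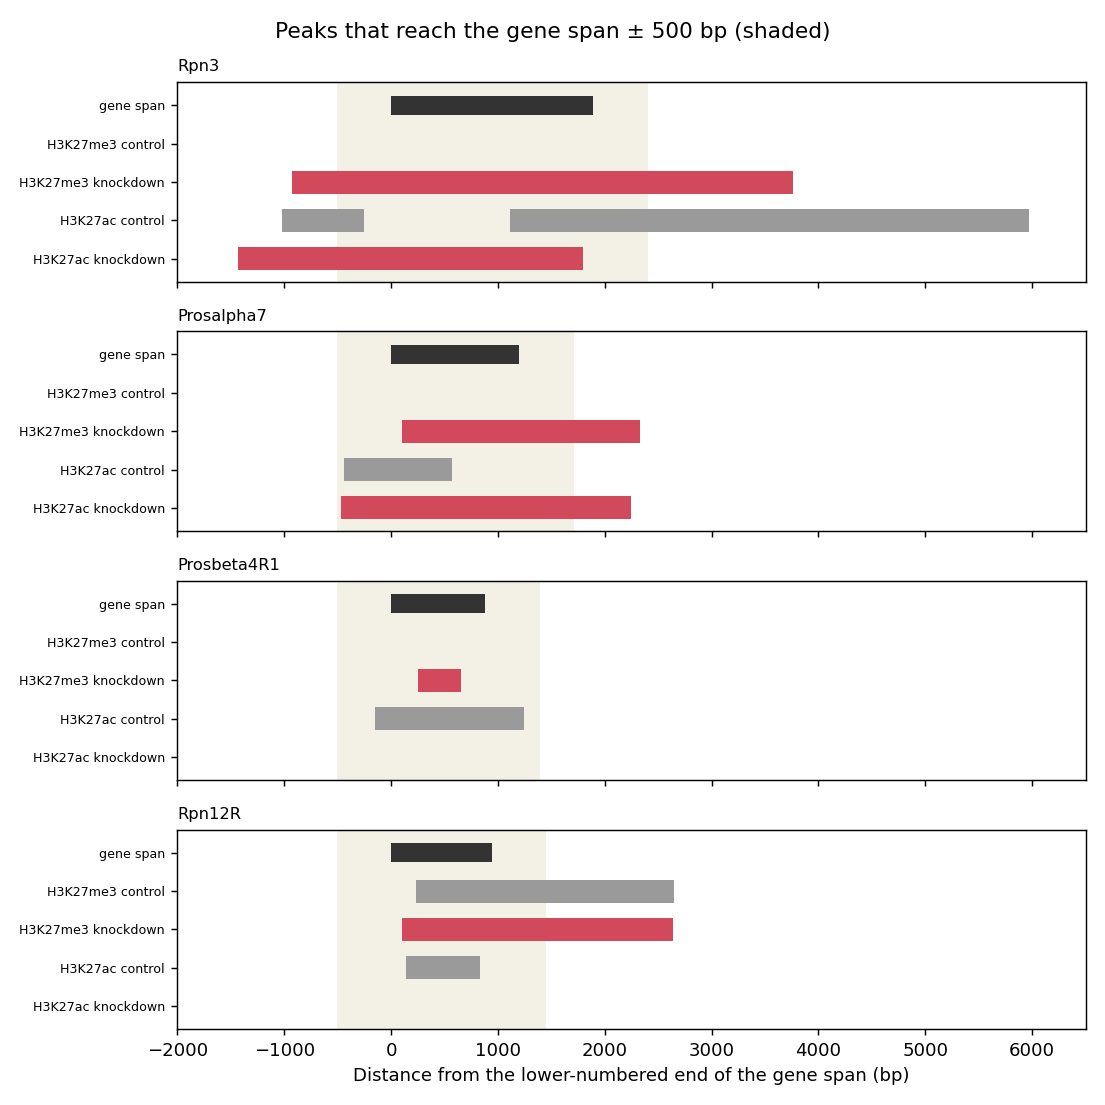
Peaks of the 4 libraries at Rpn3, Prosalpha7, Prosbeta4R1 and Rpn12R, drawn by distance from the lower-numbered end of the gene span in bp, with the window shaded. A knockdown H3K27me3 peak of 4686 bp spans the whole Rpn3 window, Prosbeta4R1 has H3K27ac in the control alone, and Rpn12R has H3K27me3 in both lists.

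H3K27ac cover higher by at least 10 points was seen at 13 of the 32 constitutive subunits (40.6%, 95% exact Clopper-Pearson interval 23.7 to 59.4%, counting error only), beside 13.5% of all genes, and lower cover at 9 (28.1%), beside 36.2% of all genes. By class, higher and lower counts were 4 and 3 of 7 for alpha, 2 and 2 of 7 for beta, 3 and 2 of 6 for Rpt, and 4 and 2 of 12 for Rpn. The share higher stayed above that of all genes in each setting tried. It was 31.2% against 12.5% under the q bound, 50.0% against 24.6% with lists of the same covered length, and 68.8% against 31.9% under the fold bound. The strongest H3K27ac peak of each constitutive gene had a median deposited fold of 2.02 in the control, where the strongest peaks of all genes had a median of 2.02, and of 2.39 in the knockdown, where it was 2.33. For knockdown H3K27me3 the corresponding medians were 1.90 and 1.93.

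The 16 paralogues are duplicates of constitutive genes, and those with T in the symbol were named for the testis. H3K27ac was called in the control alone at 8 of them (50.0%), beside 10.4% of all genes and 2 of 32 constitutive subunits. Prosbeta4R1 (2L:2653046-2653926) had H3K27ac over 74.5% in control and 0% in knockdown nuclei, with H3K27me3 over 0 and 21.3%. Prosbeta4R2 (2L:2655394-2657102) had H3K27ac over 44.0 and 0% and no H3K27me3. These genes flank the odorant receptor gene Or23a, where H3K27ac was 65.9 and 0%, so the absence extended over neighbouring genes. Rpt6R (3R:30582198-30583697) had H3K27ac over 58.2 and 0%, while its constitutive partner Rpt6 had 15.9 and 47.8%. The other paralogues with H3K27ac in the control alone were an alpha4, an alpha1 and an alpha3 duplicate, besides Prosalpha6T and Rpn12R. Prosalpha4T2 (2R:24500780-24502277) had 34.6 and 0%. Prosalpha1R (2R:7830413-7831771) had 30.4 and 0%, uncertain for the reason given for Prosalpha1. Prosalpha3T (3R:31122527-31123415) had 3.18 and 0%.

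Prosalpha6T (2L:13232039-13233058), an alpha subunit gene needed for sperm production, had H3K27ac over 18.4 and 0% and H3K27me3 over 0 and 56.1%. Not all paralogues followed this order. Prosalpha4T1 (3R:20748184-20749074), which lies within CG42322, had H3K27ac over 28.8% in control and 73.4% in knockdown nuclei. Prosbeta5R1 (2R:23308654-23309816) had H3K27ac over 63.5 and 35.3% and H3K27me3 over 0 and 31.8%, and its H3K27ac difference turned to 35.3 points under the fold bound. Rpt4R (3L:11941912-11943485) had H3K27ac over 14.1 and 24.9%, a difference of -6.54 points when the margins were left out. Rpt3R (3R:9754735-9756510) had H3K27me3 over 0 and 50.9%, from a peak with a -log10 q of 1.05, close to the lower bound of the list. Prosbeta2R1 (X:5808954-5810158) had H3K27ac over 0 and 8.16%, and Prosbeta2R2 (3R:5217751-5219528) over 41.6 and 40.9% with H3K27me3 over 0 and 18.6%. Prosbeta5R2 and Rpn13R had no peak of either mark in any list.

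Paralogues were also set against their own partners. By symbol, the 16 paralogues have 12 constitutive partners, of which 11 had H3K27ac in each list. The H3K27ac difference was lower at the paralogue than at the partner in 11 of 16 pairs. Partner genes recur in several pairs, so the pairs are not independent. The size of this contrast depended on the threshold. Under the q bound, 2 of 16 paralogues had H3K27ac in each list (12.5%), beside 29.6% of all genes in the control and 37.2% in the knockdown. Under that bound 1 had it in the control alone (6.25%, all genes 10.7%). With lists of the same covered length the numbers were 7 in the control (43.8%, all genes 63.4%) and 6 in the knockdown (37.5%, all genes 76.9%). At that length 3 had it in the control alone (18.8%, all genes 6.13%). Germ line markers had H3K27ac at 3 of 3 genes in both lists, 3.79 kb in control and 4.27 kb in knockdown nuclei, and their part in the result was not tested.

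Rpn12R (3L:15041631-15042570) was the single member with H3K27me3 in the control. It had H3K27me3 over 62.1 and 68.8% of its window, with H3K27ac over 35.5 and 0%. Its peaks ran on over the adjacent gene ind, which encodes a homeodomain factor that patterns the neuroectoderm and had H3K27me3 over 93.3 and 92.8% and H3K27ac over 45.5 and 0%. The control peak at Rpn12R had a deposited fold of 1.84 and a -log10 q of 1.83, and the knockdown peak 2.30 and 3.38, the highest -log10 q of the members' H3K27me3 peaks. Cover was thus close in the lists and the peak's own values were not, and under either bound the control peak was lost while the knockdown peak was kept.

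**Figure D3:**
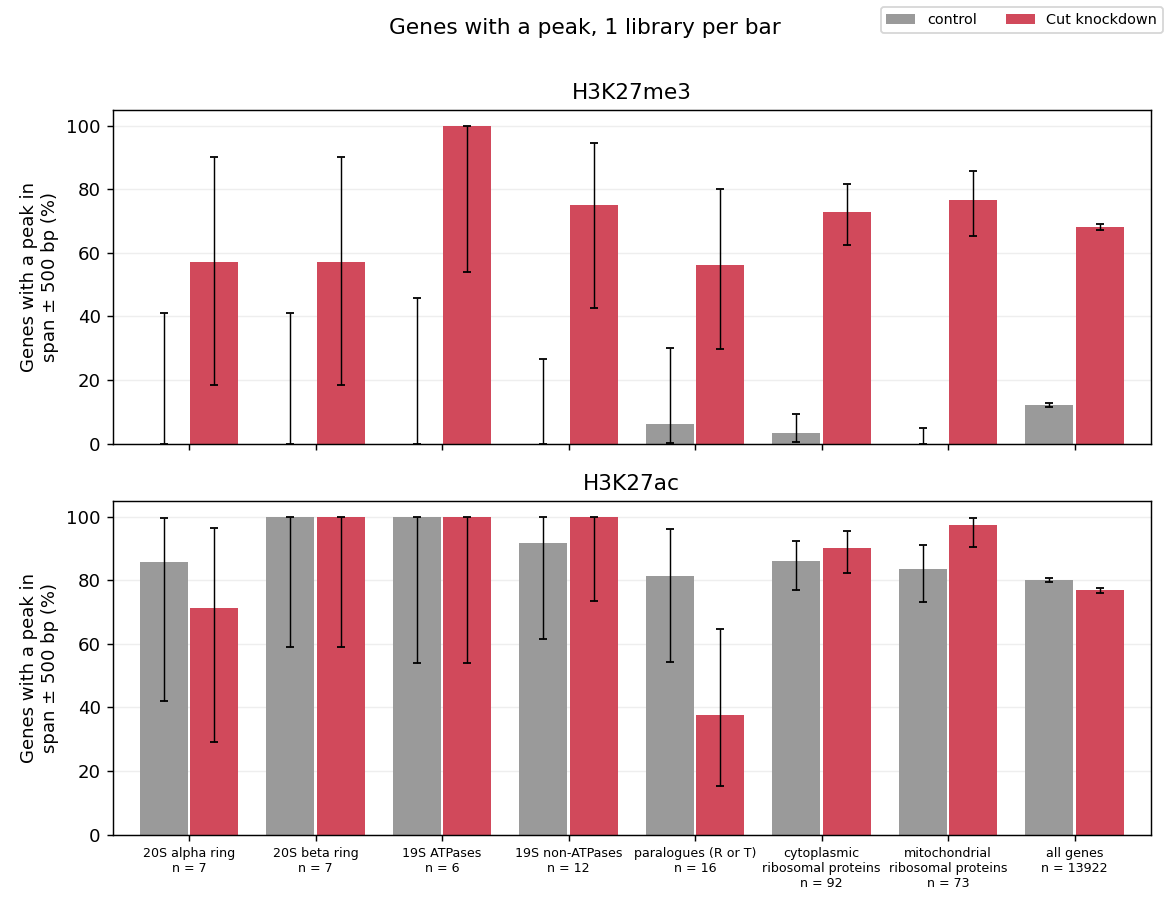
Percentage of genes with a peak in the window, for the 5 classes, the ribosomal protein genes and all genes, in the control (grey) and Cut knockdown (red) libraries. Error bars are 95% exact Clopper-Pearson intervals over genes; H3K27ac goes from 81.2% to 37.5% at paralogues and from 80.1% to 76.9% over all genes.

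Most knockdown H3K27me3 bases at the constitutive subunits lay under knockdown H3K27ac, and those at paralogues mostly did not. In the constitutive subunit windows, 69.1% of the bases under knockdown H3K27me3 were also under knockdown H3K27ac, beside 30.8% at paralogues and 36.5% over all genes. The share was 42.9% at genes of member window length. The share of H3K27me3 bases under H3K27ac was 65.6% at cytoplasmic and 56.5% at mitochondrial ribosomal protein genes. A high share was thus not seen at proteasome genes alone. Counting H3K27ac of either genotype, the shares were 79.8% at constitutive subunits, 68.9% at paralogues, 65.1% over all genes and 70.9% at genes of member window length. All 38 knockdown H3K27me3 peaks that reached a member overlapped an H3K27ac peak of at least 1 list, beside 84.2% of the 18692 peaks of the list. When such peaks were left out, no member kept H3K27me3, and 10.7% of all genes did. With the shared bases alone left out, 9 members had cover higher by 10 points (18.8%, all genes 17.6%).

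Some of these peaks had nearly the same edges as an H3K27ac peak. The knockdown H3K27me3 peak at Prosbeta3 (3R:9005520-9007872) began and ended 10 and 23 bp from a control H3K27ac peak (3R:9005510-9007849). At Rpn12 the corresponding peaks were 3L:16583085-16584708 and 3L:16583093-16584692, with 98.5% of their joint length in common. Both edges lay within 100 bp at 8 of the 38 peaks (21.1%), close to the 20.2% of the whole list. This comparison was added after the peaks were seen.

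**Figure D4:**
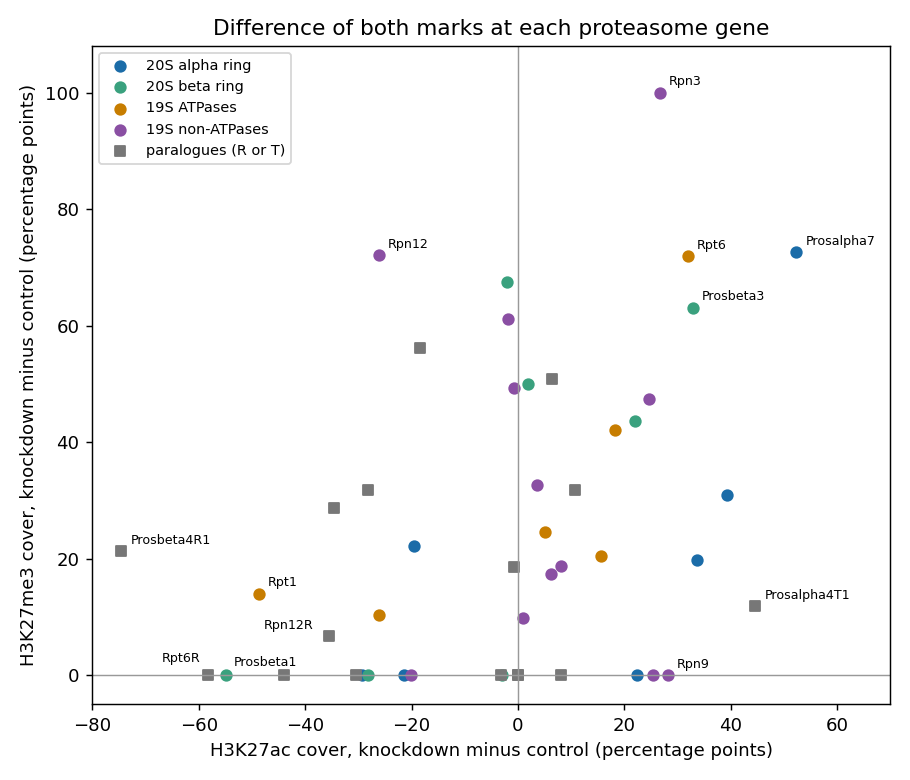
Difference in H3K27me3 cover against difference in H3K27ac cover, knockdown minus control in percentage points of the window, 1 point per gene, coloured by class. No H3K27me3 difference is below 0; Rpn3 (100), Prosalpha7 (72.6), Rpt6 (71.9) and Prosbeta3 (63.1) combine more H3K27me3 with more H3K27ac, and Prosbeta4R1 and Rpt6R lie at the left.

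Across the 48 genes, knockdown cover of the marks had a Pearson r of 0.416 and a Spearman rho of 0.454. Over all 13922 genes the values were 0.412 and 0.437, close to those of the members. Both measures share the window and its neighbours, and genes are not independent replicates. Knockdown H3K27me3 was called at 10 of the 13 constitutive genes with higher H3K27ac, with a median cover of 42.0%, at 9 of the 10 within 10 points (28.5%) and at 4 of the 9 with lower H3K27ac (0%). At paralogues the counts were 2 of 2 (21.8%), 2 of 6 (0%) and 5 of 8 (25.0%), so the classes did not show one order. Over all genes knockdown H3K27me3 was called at 68.1%, and it was not counted there by H3K27ac difference. Whether these counts are particular to members therefore cannot be said.

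Windows were short and shared. Their length ran from 1881 to 5500 bp with a median of 2381.5 bp, against 3163 bp over all genes, and 43 of the 48 held part of another gene. No 2 member windows overlapped. Peaks at a member also reached another gene at 22 of the 32 members with knockdown H3K27me3 (68.8%), at 30 of 43 with control H3K27ac (69.8%) and at 25 of 36 with knockdown H3K27ac (69.4%). A peak in a window is therefore not assigned to the subunit gene alone. At Prosbeta3, for example, the neighbour Iru had H3K27me3 over 0 and 74.4%, and at Rpn1 the neighbour Su(z)12, a Polycomb complex gene, had 0 and 54.5%.

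A list of 31 other genes of the ubiquitin-proteasome pathway (assembly factors, shuttle receptors, ubiquitin genes and ligases) was described in the same way. H3K27me3 was called at 2 of 31 in control and 25 in knockdown nuclei (80.6%), beside 12.2 and 68.1% of all genes. H3K27me3 cover was higher by 10 points at 18 (58.1%) and lower at none, beside 50.7 and 1.50% of all genes. Lower cover was possible only at the 2 genes called in the control. H3K27ac was called at 27 and 29, beside 80.1 and 76.9% of all genes. Its cover was higher by 10 points at 5 (16.1%) and lower at 9 (29.0%), beside 13.5 and 36.2% of all genes. Median H3K27ac cover was 29.7 and 28.2%, beside 20.8 and 13.2% over all genes. The cofactor p47 of the unfoldase TER94 had H3K27me3 over 0 and 90.7% and H3K27ac over 90.7 and 71.3%. Pomp, the chaperone of core assembly, had H3K27me3 over 0 and 71.1%, with H3K27ac at 37.9 and 31.4%. Cul1, the scaffold of SCF ubiquitin ligases, had H3K27ac over 58.6 and 6.27%, and the ligase gene Ube3a had 81.0 and 38.6%. The share with higher H3K27ac was 16.1% in this list and 40.6% at the constitutive subunits, a difference that was not tested.

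Other genes for large complexes gave a range around these values. The 92 cytoplasmic ribosomal protein genes had H3K27ac at 85.9 and 90.2%, higher cover at 23.9% and knockdown H3K27me3 at 72.8%. The 73 mitochondrial ribosomal protein genes had H3K27ac at 83.6 and 97.3%, higher cover at 28.8% and knockdown H3K27me3 at 76.7%. The 8 genes of the COP9 signalosome, a complex related to the proteasome lid, had H3K27ac at 75.0% in both lists, higher cover at 0 of 8 and lower cover at 4, with knockdown H3K27me3 at 62.5%. Over all genes H3K27ac was called at 80.1 and 76.9%, with higher cover at 13.5%, lower cover at 36.2% and knockdown H3K27me3 at 68.1%. The share with higher cover was 40.6% at the constitutive subunits and 23.9 to 28.8% at the ribosomal sets. No test of these differences was made.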

How the data were processed

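Peaks of H3K27me3 and H3K27ac in sorted nuclei of control and Cut knockdown embryos were analysed, 1 library per group. Per the labels' protocols, chromatin was digested with micrococcal nuclease (15 U), then sonicated (3 min), 2 µg (H3K27me3) or 1 µg (H3K27ac) of antibody was used, and input DNA served as control. Per the submitters' processing notes, the build was dm6 and the tools included FastQC, Bowtie2, MACS2 and SICER. Versions, the peak threshold and the handling of duplicate or multiply mapped reads were not given in the sources used here. The authors deposited broad peaks called per library, with a score, a fold enrichment (ratio) and the -log10 p-value and -log10 q-value of each peak; the score was not used. Columns of other samples numbered 0. Read counts were not used, so the depth is unknown. A longer list can come from deeper sequencing, and an absent peak means a signal under the peak caller's bound.

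Peaks on 6 arms were merged within each list and laid over gene spans of RefSeq release 6 extended by 500 bp, with Python 3.11.15, NumPy 2.4.6, SciPy 1.17.1 and matplotlib 3.10.9. The cover routine was tested on simulated intervals. A peak was called from 1 bp of overlap, and a difference from 10 percentage points of the window. With 1 library per group no test was run. The genes named are, per class, the 3 with the largest difference of each mark, those with at least 50% H3K27me3 cover or control H3K27me3, those without H3K27ac in at least 1 list, and the 2 largest differences of each mark in the pathway list. Other members were named for their role or for a value that turned under another threshold, and neighbours after their values were seen. All 31 pathway symbols matched. Members and lists were chosen with earlier results of these data known. Alternatives were other margins, peak thresholds, list lengths, overlaps, backgrounds and gene sets. Promoter sequence was not analysed here.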

Additional observations from a re-analysis of the deposited data

How the results depend on the processing

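H3K27me3 at the 48 genes depended on the threshold and on overlap with H3K27ac. Under the q bound (-log10 q of 2 or more), the share higher in the knockdown by 10 points was 10.4% (all genes 11.0%). The share with a knockdown peak was 14.6% (all genes 22.3%), with a control peak 0% (all genes 3.18%) and with at least 50% cover 2.08% (all genes 3.79%). Under the fold bound (a fold of 2 or more) these were 14.6, 16.7, 0 and 4.17%, beside 11.7, 22.9, 2.31 and 3.23% of all genes. With lists of the same covered length they were 4.17% higher, 8.33% with a knockdown peak and 2.08% with at least 50% cover. The shares of all genes were 4.73, 13.6 and 2.54%. Without bases in H3K27ac peaks they were 18.8, 31.2 and 2.08%, beside 17.6, 49.8 and 1.34% of all genes. Without peaks that overlap H3K27ac all were 0, beside 2.85, 10.7 and 0.151% of all genes. The control peak at Rpn12R (2.08%) was also lost, by construction, among constitutive subunits (0%) and in windows without bases of other genes (0%). Mean H3K27me3 differences of constitutive subunits were 2.54 (-log10 q), 5.40 (fold), 2.54 (same length), 5.48 (without shared bases) and 0 points (without overlapping peaks), and of paralogues 8.06, 7.62, 0.422, 4.41 and 0. Those of all genes were 4.27, 4.56, 0.695, 4.62 and 0.531.

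For H3K27ac, constitutive subunits with a peak were 34.4% (control) and 56.2% (knockdown) with the q bound, 50.0% in the control with the fold bound, 71.9% in the control at the same length and 100% in both with a margin of 1000 bp. The all-gene shares were 29.6 and 37.2%, 43.7%, 63.4%, and 85.5 and 82.1%. Among constitutive subunits, higher cover was seen at 68.8% with the fold bound (all genes 31.9%). Lower cover was seen at 6.25% of these subunits with that bound (all genes 11.6%) and 12.5% at the same length (all genes 22.1%). Their mean difference of 3.67 points became 6.14 (no margin), 8.20 (-log10 q), 27.3 (fold) and 15.4 (same length). Paralogues with a control peak were 12.5, 12.5 and 43.8% under the q bound, the fold bound and the same length (all genes 29.6, 43.7 and 63.4%). Those with a peak in the control alone were 6.25, 6.25 and 18.8% (all genes 10.7, 4.38 and 6.13%). Those with lower cover were 6.25, 0 and 12.5% (all genes 9.77, 11.6 and 22.1%). A knockdown peak remained at 12.5% of paralogues with the q bound (all genes 37.2%). The mean difference of paralogues was -1.48 with the q bound and turned to 10.1 (fold) and 0.418 (same length). The mean over all genes, -7.25, also turned, to 1.17, 6.36 and 0.0343. The fold bound left 80.3% of knockdown but 32.6% of control H3K27ac peaks, which moves H3K27ac values toward the knockdown by construction.

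Single H3K27ac differences turned with the q bound at Prosalpha2 (43.0), Prosalpha7 (-46.3), Prosbeta1 (5.85), Prosbeta2 (11.4), Prosbeta6 (-49.5) and Rpt1 (11.5), with the fold bound at Prosalpha2 (43.0), Prosbeta2 (11.4), Rpt1 (26.8), Rpt5 (6.11), Rpn11 (9.68) and Prosbeta5R1 (35.3), at the same length at Prosbeta2 (11.4) and Rpn11 (9.68), and with no margin at Rpt4R (-6.54). No called H3K27me3 difference turned in any setting run. Each such member had control cover of 0, so a setting that only removes peaks or bases could not turn it. With the q bound 26 of these differences fell below 10 points and 4 stayed. At the same length 28 fell below and 2 stayed. The causes of the other shifts were not tested. The background of member window length, windows without bases of other genes, and leaving out Prosalpha1 and Prosalpha1R were chosen after seeing the data, and the last moved no count by 1.5 times. No member windows overlapped, so leaving out overlapping windows changed nothing. No paired analysis was possible because each group held 1 library. With 1 library per group and no depth, neither the error of a cover value nor the power to call a peak can be stated, and intervals over genes cover counting error only.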

Other observations

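Another family with duplicated genes was described after the paralogues' values were seen. Among 25 oxidative phosphorylation genes whose symbol ends in L, H3K27ac was called at 76.0% in control and 60.0% in knockdown nuclei, and in the control alone at 4. Mean H3K27ac cover was 24.6 and 12.8%. Among the 67 other genes of that list, H3K27ac was called at 88.1 and 91.0%, in the control alone also at 4, and mean cover was 35.3 and 31.0%. COX7CL had H3K27ac over 80.7% of its window in the control and 0.393% in the knockdown, and ND-20L had H3K27me3 over 100% in both lists with H3K27ac over 40.0 and 0%. Depth, peak threshold and neighbours were not separated from these values.

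Outside the class patterns, 7 members had a knockdown H3K27me3 peak with a -log10 q of at least 2 (14.6%), fewer than the 22.3% of all genes. They were Rpn1 (2.78), Rpn2 (2.66), Rpn8 (2.87), Prosbeta2R2 (2.05), Prosbeta4R1 (2.28), Rpt4R (2.14) and Rpn12R (3.38). None was a 20S core gene or an ATPase of the constitutive set.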
